A study of Sus scrofa with 8 samples.

Results

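Genes of water channels and of sodium and chloride transport were described in endometrium of pregnant Meishan and Yorkshire gilts on day 12 of gestation. The 8 genes were chosen by name, with earlier results of these data known, and not by a rule on a measured value. They were the aquaporins AQP1, AQP3, AQP5 and AQP9, the sodium pump subunits ATP1B1 and ATP1B3, the chloride channel CFTR and the sodium channel subunit SCNN1A. The annotation of the array named 9 probesets for 7 of the 8 genes, of the 23999 non-control probesets on each array, and the Entrez identifier of all 9 gave the same symbol in RefSeq. AQP1 and ATP1B1 had more than 1 probeset, called here the brighter and the dimmer probeset of the gene. AQP9, a channel for water and small solutes such as glycerol, was matched by none of the names used here and was not analysed here.

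Meishan is a prolific Chinese breed and Yorkshire a European breed with smaller litters. The 4 Meishan gilts and the 4 Yorkshire gilts were mated naturally to boars of their own breed, and their ages are not given in the sources used here. Endometrium was taken from the uterine horn, and uteri entered the study only when the conceptuses had already elongated into filaments. Total RNA of each gilt was hybridized to 1 one-colour Affymetrix Porcine Genome array, so that each value below is from a separate animal, and precision is limited by how few arrays there are. Sire breed, conceptus breed and gilt breed cannot be told apart in this design.

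Water crosses an epithelium passively, through aquaporins in the cell membrane, and follows the ions that the cells pump or let through. The sodium pump, an enzyme of a catalytic alpha and a glycoprotein beta subunit, exports sodium at the basolateral side, and its beta subunit takes the enzyme to the membrane. In the uterus, CFTR passes chloride and bicarbonate into the lumen, and the epithelial sodium channel takes sodium back from it, so that together they set the volume of the fluid in which the conceptuses float and elongate.

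Each array was centred on its median, and a signal below is on that common scale, with no unit. The signals of control probesets were left uncentred. Signals of different probesets depend on the probes and were not set against each other as levels of RNA. Over the whole array, limma called 218 of 23999 probesets at an adjusted p under 0.1, which is 0.908%, and 3540 probesets, or 14.8%, had an unadjusted p under 0.05. Signals of Meishan and Yorkshire gilts were free of overlap in 2423 probesets, or 10.1%. The median difference over all probesets was 0.02 on the log2 scale (Meishan minus Yorkshire, as throughout), and the median size of a difference without its sign was 0.34. Epithelial markers were bright in every gilt, with EPCAM at a mean of 10980.2 in Meishan and 10170.4 in Yorkshire gilts, and stromal markers too, with DCN at 18755 in Meishan and 15540.4 in Yorkshire gilts, which is what a whole endometrial sample contains. Added hybridization controls were brighter in Meishan gilts, where the mean of 9 probesets was 2644 to 5627, than in Yorkshire gilts, where it was 1399 to 1996. The part of this in the values below was not tested.

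None of the 9 probesets was called between the breeds, against 0.908% of all probesets. AQP1 alone had an unadjusted p under 0.05, which is 1 of 9 probesets against 14.8% of all. It was no longer under 0.05 with no further scaling, after quantile or cyclic loess normalization, without Meishan gilt 1 or 3, without Yorkshire gilt 1, 2 or 3, or without both Meishan gilt 1 and Yorkshire gilt 4. In none of the 9 were the breeds free of overlap, against 10.1% of all. The difference lay toward Meishan in 6 probesets (AQP3, both of ATP1B1, ATP1B3, CFTR and SCNN1A) and toward Yorkshire in 3 (both of AQP1, and AQP5), as it did toward Meishan in 12419 and toward Yorkshire in 11580 of all probesets. In a whole tissue sample, fewer cells of a type and less RNA per cell cannot be told apart.

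**Figure D1:**
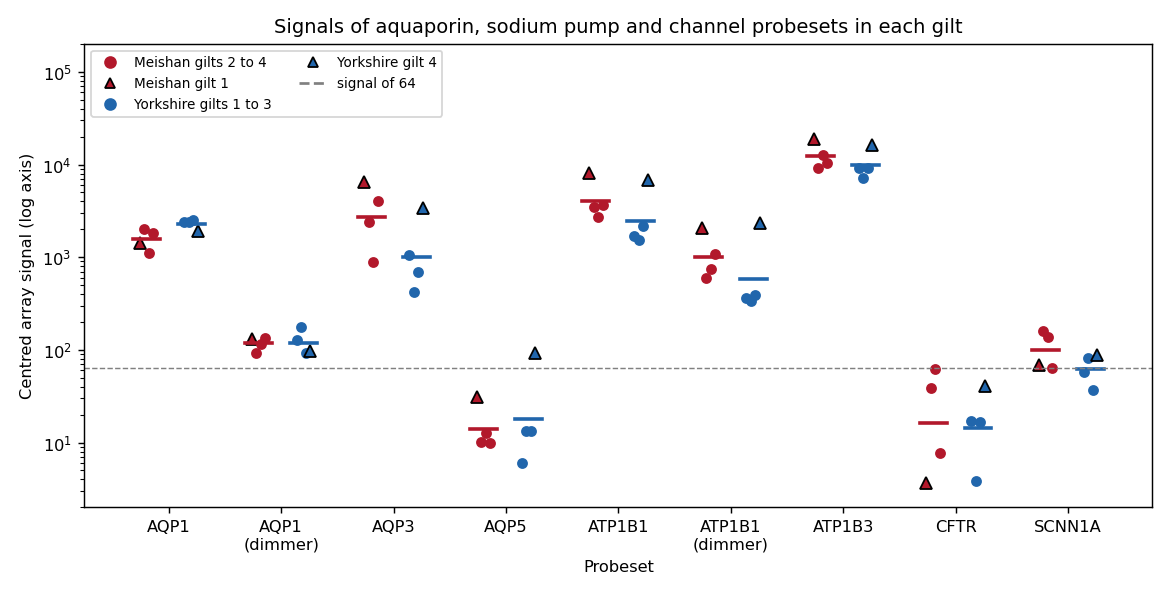
Centred array signal (log axis) of each of the 9 probesets in each gilt, Meishan at the left and Yorkshire at the right of each pair, with a bar at the mean of log2 signals and a dashed line at a signal of 64. The breeds overlap in every probeset, and the triangles, Meishan gilt 1 and Yorkshire gilt 4, lie highest of their breed in AQP3, AQP5, both ATP1B1 probesets and ATP1B3.

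Among the water channels, AQP1, a channel for water alone that is abundant in the endothelium of small vessels, had the brighter signals in Yorkshire. It had 1434, 2032, 1106 and 1817 in the 4 Meishan gilts, against 2409, 2422, 2513 and 1900.1 in the 4 Yorkshire gilts. Yorkshire gilts 1 to 3 lay above every Meishan gilt, and only Yorkshire gilt 4 fell among them, below Meishan gilt 2. The mean was 1555 in Meishan and 2297 in Yorkshire, with an SD of 0.39 and 0.18 on the log2 scale (n = 4 each). The log2 difference was -0.56 ± 0.23 (SE), with a 95% interval of -1.10 to -0.02, and its p of 0.0429 became 0.322 in limma after Benjamini-Hochberg adjustment over all probesets.

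The dimmer probeset of AQP1 did not share this order. It had 132, 91.6, 115 and 136 in Meishan gilts, against 127, 177, 92.7 and 98.3 in Yorkshire gilts. The means of 117 and 119 differed by -0.03 on the log2 scale, with a 95% interval of -0.62 to 0.56 (limma adjusted p = 0.972). Over the 8 gilts, the deviations of both AQP1 probesets from their breed means had a Pearson correlation of -0.03, so that they ranked the gilts differently. Averaged over both probesets of the gene, the difference of AQP1 was -0.30 (limma adjusted p = 0.536).

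Most endothelial markers lay on the same side as the brighter AQP1 probeset. Of 8 endothelial genes 7 were measured, 6 of them toward Yorkshire, and 0 were called or at a signal of 0. Their summed signal was 5409 to 5499 in Meishan and 5852 to 7695 in Yorkshire gilts, with no overlap, which 10.1% of all single probesets also showed. CDH5, the cadherin of endothelial junctions, had means of 1229 in Meishan and 1839 in Yorkshire gilts (log2 difference -0.58, limma adjusted p = 0.185), and CLDN5, a tight junction protein of vessels, had 324 in Meishan and 530.3 in Yorkshire gilts (-0.71, limma adjusted p = 0.170). VWF, TEK, TIE1 and KDR had log2 differences of -0.53, -0.32, -0.25 and -0.09, and the breeds overlapped in each of them. PECAM1, a general endothelial adhesion molecule, was the exception in direction, with 2002 in Meishan and 1859 in Yorkshire gilts. Within the breeds, the deviations of AQP1 and of the summed endothelial signal had a Pearson correlation of 0.32 over 8 gilts. The part of the endothelial markers in the AQP1 values was not tested.

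AQP3, which passes glycerol as well as water and lies in the basolateral membrane of many epithelia, had the widest spread among the probesets above a signal of 64 in every gilt. Its signals were 6542, 2384, 878 and 4011 in Meishan gilts, against 1069, 421, 697 and 3371 in Yorkshire gilts. Meishan gilt 3 lay below Yorkshire gilts 1 and 4, and Yorkshire gilt 4 lay above Meishan gilts 2 and 3. The mean was 2723 in Meishan and 1014 in Yorkshire gilts, a 2.68-fold difference, with an SD of 1.24 and 1.28 on the log2 scale. The log2 difference of 1.42 ± 0.78 (SE) had a 95% interval of -0.37 to 3.22 (limma adjusted p = 0.441). The data thus do not settle whether AQP3 differed between the breeds.

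AQP5, which sits in the apical membrane of glands and other secretory epithelia, was dim in all but 1 gilt. It had 31.2, 10.1, 12.8 and 9.93 in Meishan gilts, against 6.08, 13.3, 13.5 and 92.2 in Yorkshire gilts. A signal of 64 was reached in Yorkshire gilt 4 alone. The log2 difference was -0.33 ± 0.81 (SE), with a 95% interval of -2.19 to 1.52 (limma adjusted p = 0.881), and it was 0.46 without Yorkshire gilt 4.

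The difference between the log2 signals of a pair of probesets on the same array does not change when an array is scaled by a single factor. This difference can still change under quantile or cyclic loess normalization. For AQP3 minus AQP1, brighter probeset, it was 2.19, 0.23, -0.33 and 1.14 in Meishan gilts, against -1.17, -2.52, -1.85 and 0.83 in Yorkshire gilts. Its mean of 0.81 (SD 1.10) in Meishan and -1.18 (SD 1.45) in Yorkshire gilts gave a difference of 1.99. All 4 Meishan gilts lay above Yorkshire gilts 1 to 3, while Yorkshire gilt 4 lay above Meishan gilts 2 and 3. The breeds overlapped also for AQP3 minus AQP5, with a difference of 1.76, and for AQP1 minus AQP5, with -0.23. The last had no stable sign, at 0.18 after quantile and 0.22 after cyclic loess normalization, 0.19 without Meishan gilt 1, 0.31 without Yorkshire gilt 1 and -1.11 without Yorkshire gilt 4.

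**Figure D2:**
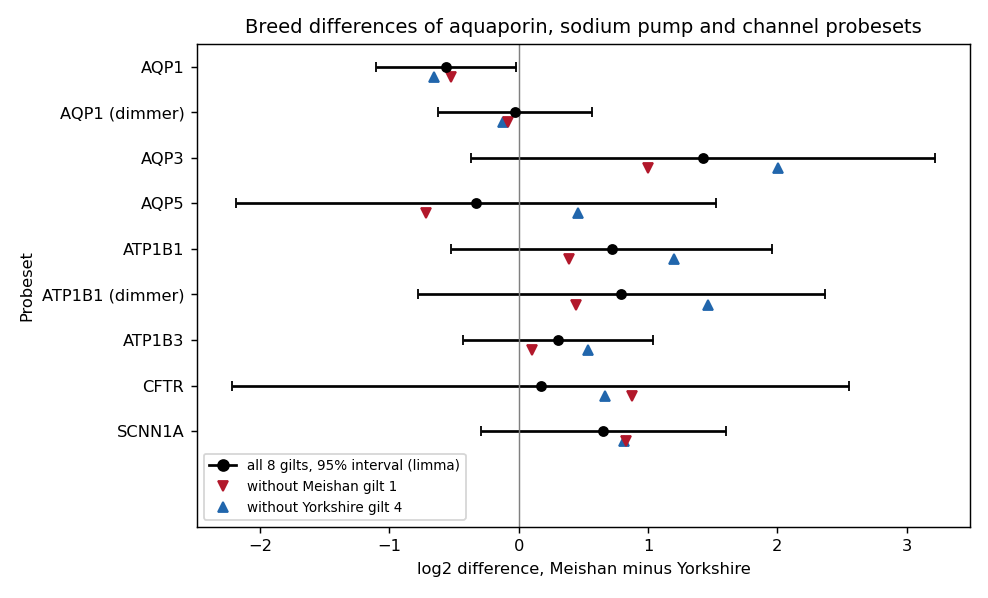
Difference of log2 signals, Meishan minus Yorkshire, for each of the 9 probesets over all 8 gilts (points, with bars for the 95% interval in limma) and after leaving out Meishan gilt 1 or Yorkshire gilt 4 (triangles). Only the interval of the brighter AQP1 probeset, -1.10 to -0.02, leaves out 0, and the values of AQP3 and ATP1B1 shift to 2.00 and 1.20 without Yorkshire gilt 4.

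Of the sodium pump subunits, ATP1B1, the beta subunit common in epithelia, had 8130.1, 3442, 2721 and 3678 in Meishan gilts, against 1693, 1525, 2168 and 6837 in Yorkshire gilts. Every Meishan gilt lay above Yorkshire gilts 1 to 3, and Yorkshire gilt 4 lay above all Meishan gilts but the first. The mean was 4091 in Meishan and 2487 in Yorkshire gilts (SD 0.69 and 1.00 on the log2 scale). The log2 difference was 0.72 ± 0.54 (SE), with a 95% interval of -0.52 to 1.96 (limma adjusted p = 0.584).

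The dimmer ATP1B1 probeset ordered the gilts in nearly the same way. It had 2090.4, 599.6, 749 and 1078 in Meishan gilts, against 360.3, 339.6, 395 and 2321 in Yorkshire gilts. Here Yorkshire gilt 4 was the highest of all 8 gilts. The log2 difference was 0.79 ± 0.68 (SE), with a 95% interval of -0.78 to 2.37 (limma adjusted p = 0.637). The deviations of both ATP1B1 probesets from their breed means had a Pearson correlation of 0.96 and a Spearman correlation of 0.83 over 8 gilts.

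The size of these differences depended on Yorkshire gilt 4. Without it, the log2 differences of both ATP1B1 probesets were 1.20 (limma adjusted p = 0.253) and 1.46 (limma adjusted p = 0.218), and AQP3 had a difference of 2.00 (limma adjusted p = 0.272). Then 4 of the 9 probesets had an unadjusted p under 0.05 (the brighter of AQP1, AQP3 and both of ATP1B1), against 3461 of all 23999. Of the 9, 0 were called, against 158 of all 23999. Without Meishan gilt 1 the ATP1B1 differences were 0.39 and 0.44 instead, and without Yorkshire gilt 2 they were 0.48 and 0.54. AQP3 had 1.00 without Meishan gilt 1 and 1.00 without Yorkshire gilt 2. Over all alternatives run, the adjusted p in limma lay between 0.224 and 0.779 for the brighter ATP1B1 probeset, between 0.198 and 0.817 for the dimmer one, between 0.272 and 0.657 for AQP3 and between 0.211 and 0.536 for AQP1.

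ATP1B3, a beta subunit found in many tissues, had 18667, 9272, 12755 and 10419.8 in Meishan gilts, against 9278, 7193, 9160.4 and 16136 in Yorkshire gilts. Meishan gilt 1 and Yorkshire gilt 4 were again the highest of their breed. The mean was 12315 in Meishan and 9966 in Yorkshire gilts, and the log2 difference of 0.31 ± 0.32 (SE) had a 95% interval of -0.43 to 1.04 (limma adjusted p = 0.703). It was 0.11 without Meishan gilt 1, 0.15 without Yorkshire gilt 2 and 0.54 without Yorkshire gilt 4. Within an array, ATP1B1 minus ATP1B3 was -1.20, -1.43, -2.23 and -1.50 in Meishan gilts, against -2.45, -2.24, -2.08 and -1.24 in Yorkshire gilts. The breeds overlapped in it and differed by 0.41 in the mean.

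Of the ion channels, SCNN1A, the alpha subunit of the epithelial sodium channel, had 68.1, 161, 137 and 63.3 in Meishan gilts, against 57.9, 82.2, 37.1 and 88.3 in Yorkshire gilts. Meishan gilts 2 and 3 lay above all Yorkshire gilts, and the other Meishan gilts lay among them. The log2 difference was 0.65 ± 0.41 (SE), with a 95% interval of -0.29 to 1.60 (limma adjusted p = 0.504), and it was 0.40 without Yorkshire gilt 3 and 0.42 without Meishan gilt 2. A signal of 64 was reached in 3 Meishan and 2 Yorkshire gilts.

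CFTR was the dimmest and least repeatable of the probesets. It had 3.70, 38.8, 61.9 and 7.66 in Meishan gilts, against 16.9, 3.80, 16.5 and 40.3 in Yorkshire gilts. No gilt reached a signal of 64. Its log2 difference of 0.17 ± 1.04 (SE) had a 95% interval of -2.22 to 2.55 (limma adjusted p = 0.956), so that no breed difference in CFTR, in either direction, could be detected at this signal. For CFTR minus SCNN1A within an array the difference was -0.49, and the breeds overlapped. It was 0.04 without Meishan gilt 1, -1.25 without Yorkshire gilt 2 and 0.38 without both Meishan gilt 1 and Yorkshire gilt 4.

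AQP3 and ATP1B1 varied more between gilts of the same breed than most probesets of like signal. The pooled SD within breeds was 1.26 on the log2 scale for AQP3 and 0.86 for the brighter ATP1B1 probeset, where the median of the 2400 probesets in the same of 10 bins by signal was 0.27. Of these 2400 probesets, 99.5% had a smaller SD than AQP3 and 98.0% a smaller SD than ATP1B1. The dimmer ATP1B1 probeset had an SD of 1.10, above 98.6% of its own bin, and ATP1B3 had 0.47, above 84.2%. AQP1 was close to the middle, with 0.30 for the brighter probeset, above 58.6% of its bin, and 0.35 for the dimmer one, above 34.9%. The SD of CFTR was 1.68, that of AQP5 1.30 and that of SCNN1A 0.63, above 82.2%, 65.8% and 67.3% of their bins.

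**Figure D3:**
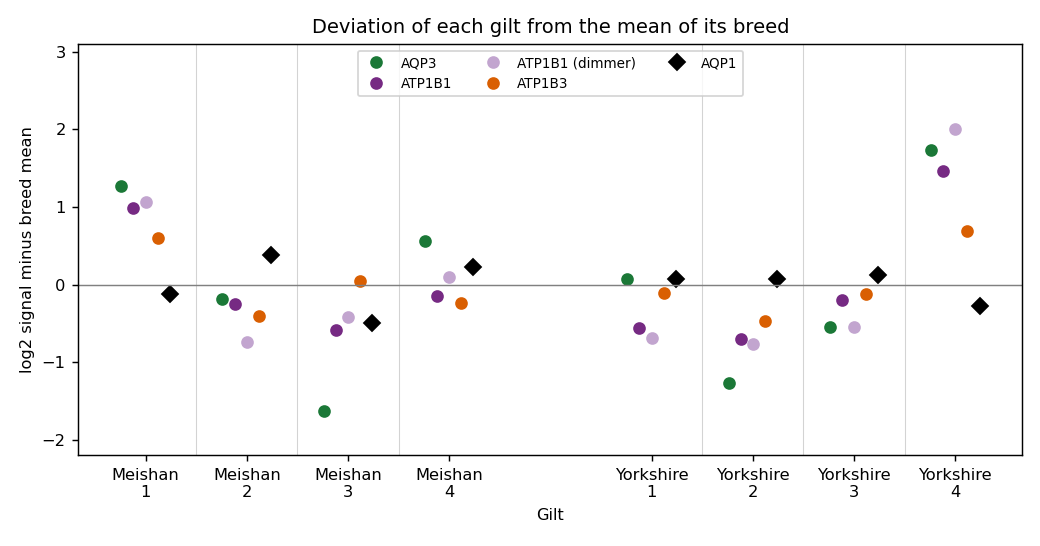
Deviation of each gilt from the mean of its breed (log2 signal) for AQP3, both ATP1B1 probesets, ATP1B3 and the brighter AQP1 probeset, Meishan gilts at the left and Yorkshire gilts at the right. AQP3, ATP1B1 and ATP1B3 lie above 0 together in Meishan gilt 1 and Yorkshire gilt 4, and AQP1 lies below 0 in both.

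The same gilts were high in most of these probesets. Meishan gilt 1 and Yorkshire gilt 4 were both the highest of their breed in 5 of the 9 probesets (AQP3, AQP5, both of ATP1B1 and ATP1B3), and in 3364, or 14%, of all probesets. For the 15 other pairings of 1 gilt from each breed that share was 4.14% to 9.26%. This pair was chosen after the values were seen, and no test was made of it.

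The deviations of AQP3 and of the brighter ATP1B1 probeset had a Pearson correlation of 0.88 and a Spearman correlation of 0.88 over 8 gilts, and a Pearson correlation of 0.69 over the 6 gilts other than these. For ATP1B1 and ATP1B3 the Pearson correlation of 0.89 over 8 gilts was -0.06 over the 6, and for AQP5 and ATP1B1 0.91 over 8 gilts was -0.02 over the 6. The correlations of ATP1B1 with ATP1B3 and with AQP5 thus rested on 2 gilts, and that of both ATP1B1 probesets, 0.96, was 0.41 over the 6. The brighter AQP1 probeset went the other way from ATP1B3, with -0.65 over 8 gilts and -0.71 over the 6. With AQP3 it had 0.03 over 8 gilts and 0.74 over the 6. With the brighter ATP1B1 probeset it had -0.30 over 8 gilts and 0.66 over the 6, and with the dimmer one -0.45 and -0.02. All are descriptions, since the points share the arrays and their scaling.

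A sign of RNA quality moved with these gilts, and another did so in part. The ratio of the 3′ to the 5′ probesets of GAPDH, which is higher where RNA is more degraded or less fully copied, was 3.41, 7.14, 4.56 and 4.15 in Meishan gilts, against 4.04, 4.98, 5.68 and 3.38 in Yorkshire gilts. Meishan gilt 1 and Yorkshire gilt 4 had the lowest ratio of their breed. Over the 8 gilts, deviations of this log2 ratio had a Pearson correlation of -0.61 with those of AQP3, -0.61 and -0.75 with those of ATP1B1, -0.78 with those of ATP1B3 and 0.59 with those of the brighter AQP1 probeset. The same ratio of actin was 1.56, 3.32, 2.91 and 2.63 in Meishan gilts, against 2.01, 2.48, 4.45 and 2.26 in Yorkshire gilts. It was lowest in Meishan gilt 1 but, among Yorkshire gilts, in gilt 1 and not in gilt 4. Its correlations were -0.53 with AQP3, -0.44 and -0.50 with ATP1B1, -0.54 with ATP1B3 and 0.30 with AQP1. The part of RNA quality in the values was not tested.

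**Figure D4:**
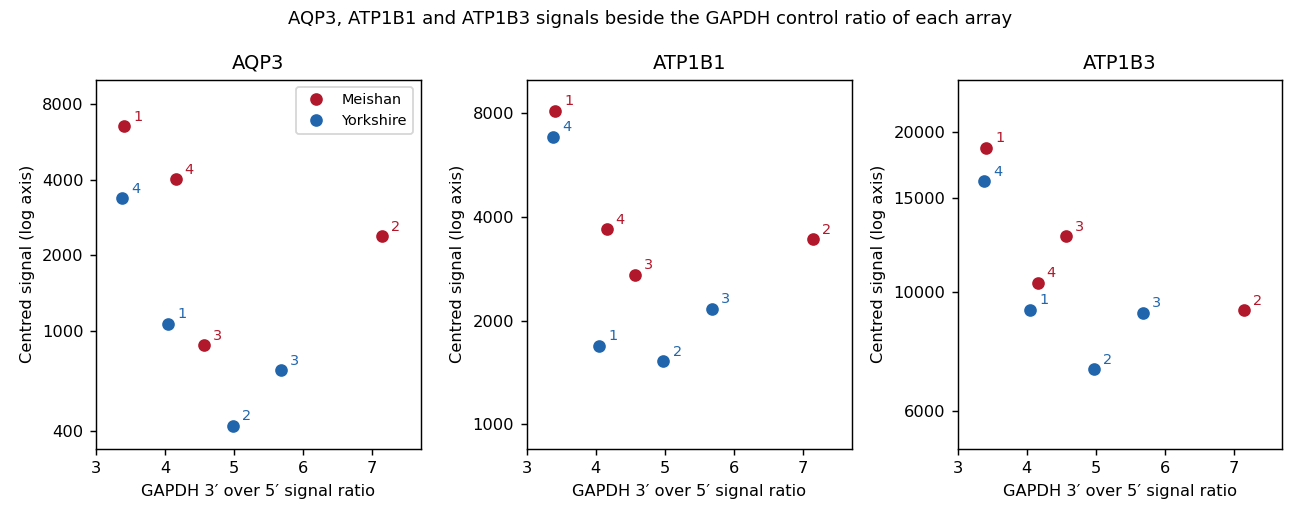
Centred signals of AQP3, ATP1B1 and ATP1B3 in each gilt plotted against the ratio of the 3′ to the 5′ probesets of GAPDH in the same gilt, Meishan and Yorkshire gilts in separate colours with their gilt numbers (signals on a log axis). Meishan gilt 1 and Yorkshire gilt 4, with ratios of 3.41 and 3.38, have the highest signals of their breed.

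Cell type markers differed in these gilts too. Of 8 epithelial markers 7 were measured, none at a signal of 0, and their summed signal was 26272 to 43908 in Meishan and 28475 to 42018 in Yorkshire gilts, with Meishan gilt 1 and Yorkshire gilt 4 at the top of each range. Its deviations had a Pearson correlation of 0.77 with those of ATP1B1, 0.61 with those of AQP3 and -0.64 with those of AQP1 over 8 gilts. Of 8 leukocyte markers 5 were measured, with sums of 345 to 693 in Meishan and 439.7 to 579 in Yorkshire gilts, and here both gilts were lowest of their breed. Of 8 markers of the conceptus trophoblast 5 were measured, with sums of 322 to 1392 in Meishan and 299 to 7047 in Yorkshire gilts. Both gilts were again lowest, and Yorkshire gilts 1 and 3 had sums of 6246 and 7047. Most of these sums was IFNG, at 4604 and 6286, while the steroid enzymes CYP17A1 (13.4 and 65.0) and CYP11A1 (47.9 and 69.8) were near or below 64, and 1 of the 5 markers reached 64 in all gilts. The part of these cell types in the values was not tested.

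Smooth muscle (5 of 6 markers measured) had sums of 7650.1 to 19287 in Meishan and 11881 to 20141 in Yorkshire gilts, and red blood cells (4 of 8) had 946 to 1387 in Meishan and 951 to 1394 in Yorkshire gilts. Meishan gilt 1 and Yorkshire gilt 4 were at the top of each of these ranges, as for epithelium. The deviations of smooth muscle had a Pearson correlation of 0.57 with those of AQP3 and 0.60 with those of ATP1B1 over 8 gilts, and those of red blood cells 0.63 and 0.44. Stroma (6 of 8) had 59757 to 64994 in Meishan and 49440.5 to 57727 in Yorkshire gilts, with no overlap, which 10.1% of all single probesets also showed. The brightest stromal marker was VIM, at 25493 in Meishan and 18368 in Yorkshire gilts. Of the 6 stromal markers 4 lay toward Meishan and 2 toward Yorkshire, COL3A1 with a log2 difference of -0.79 and PDGFRB with -0.31. None of the markers of any cell type was called or at a signal of 0.

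The genes around these channels and pumps were followed in 8 lists of water and ion transport, which named 133 genes. Of these, 54 had a probeset by the annotation of the array and count as measured here, each taken at its brightest one. Genes named only by the study's own table, such as AQP10, are not counted and are given at the end. None of the 54 was called, against 0.908% of all probesets. At an unadjusted p under 0.05 were 3 toward Meishan and 3 toward Yorkshire, together 6 of 54 genes, against 14.8% of all probesets. In 3 of 54 the breeds did not overlap, against 10.1%. The difference lay toward Meishan in 30 genes and toward Yorkshire in 24, with a median of 0.13, against 0.02 for all probesets. Meishan gilt 1 and Yorkshire gilt 4 were both highest of their breed in 11 of the 54 genes, or 20.4%, against 14% of all probesets, and in none of the cotransporter, bicarbonate and potassium channel lists.

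**Figure D5:**
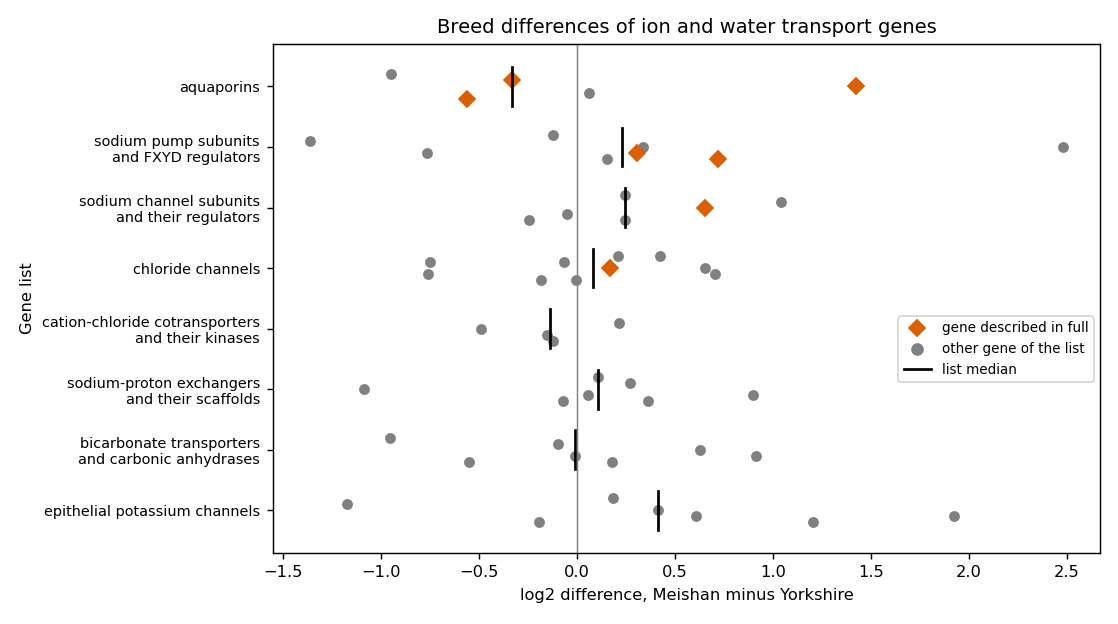
Difference of log2 signals, Meishan minus Yorkshire, of each measured gene in the 8 lists of water and ion transport, at its brightest probeset, with the genes described in full marked apart. The 54 genes spread to both sides of 0 in every list, and their median is 0.13.

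Of the 14 aquaporins 5 were measured, 2 toward Meishan and 3 toward Yorkshire, with a median of -0.33. The other aquaporins named by the annotation were AQP8, a channel for water and ammonia, and AQP11, a channel of intracellular membranes. AQP10, named only by the study's own table, is not among the 5. AQP8 averaged 33.8 in Meishan and 65.3 in Yorkshire gilts, with a log2 difference of -0.95 (limma adjusted p = 0.536). AQP11 averaged 904 in Meishan and 867 in Yorkshire gilts, with 0.06 (limma adjusted p = 0.935).

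Of the 15 pump subunits and FXYD proteins, small membrane proteins that tune the pump, 8 were measured, 5 toward Meishan and 3 toward Yorkshire, with a median of 0.23. FXYD6 was the one in which the breeds did not overlap. It had 680.2, 777, 659 and 640.0 in Meishan gilts, against 938, 1069, 1734 and 1069 in Yorkshire gilts, with a log2 difference of -0.77 (limma adjusted p = 0.191). FXYD2, best known as the gamma subunit of the renal pump, averaged 79.2 in Meishan and 204 in Yorkshire gilts, with -1.36 (limma adjusted p = 0.362). ATP1B4, a beta family member that in placental mammals is found mainly in muscle and not in the pump, averaged 76.7 in Meishan and 13.8 in Yorkshire gilts, with 2.48 (limma adjusted p = 0.316).

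Of 12 sodium channel subunits and regulators 6 were measured, 4 toward Meishan and 2 toward Yorkshire, with a median of 0.24. SCNN1B, the beta subunit of the channel whose alpha subunit is SCNN1A, had 968, 147, 319 and 853 in Meishan gilts, against 133, 112, 247 and 586 in Yorkshire gilts. Its log2 difference of 1.04 had a limma adjusted p of 0.555. For SCNN1A the highest gilts of their breed were Meishan gilt 2 and Yorkshire gilt 4, and for SCNN1B they were Meishan gilt 1 and Yorkshire gilt 4. SGK1, a kinase that keeps the channel in the membrane, averaged 4389 in Meishan and 3708 in Yorkshire gilts, with 0.24 (limma adjusted p = 0.785), and had the same highest gilts, as had PRSS8, a protease that activates the channel. SGK1 and PRSS8 were chosen for this after their values were seen. HSD11B2, which protects the mineralocorticoid receptor from cortisol, and ST14, a membrane protease, had differences of 0.25 and -0.25.

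Of 24 chloride channel genes 10 were measured, 5 toward each breed, with a median of 0.08. CLCN3, a chloride-proton exchanger of endosomes named here after its values were seen, counted at its brightest probeset, where the difference was -0.00454. Its other probesets had 0.43 (limma adjusted p = 0.325) and 0.72 (limma adjusted p = 0.140), and in the last, with means of 769.8 in Meishan and 468 in Yorkshire gilts, the breeds did not overlap. CLIC1, an intracellular chloride channel protein, averaged 4047 in Meishan and 2574 in Yorkshire gilts, with a log2 difference of 0.65 (limma adjusted p = 0.354). CLCN2, a plasma membrane chloride channel, averaged 214 in Meishan and 159.7 in Yorkshire gilts, with 0.42 (limma adjusted p = 0.432). BEST1, a calcium-activated anion channel, was dim, at 45.9 in Meishan and 28.2 in Yorkshire gilts, with 0.70. Its dimmer probeset lay toward Yorkshire, at 8.84 in Meishan and 12.5 in Yorkshire gilts, with -0.50. Of 13 cation-chloride cotransporters and their kinases 4 were measured, 1 toward Meishan and 3 toward Yorkshire, with a median of -0.14. WNK1, a kinase that switches these cotransporters, averaged 83.7 in Meishan and 118 in Yorkshire gilts, with -0.49 (limma adjusted p = 0.512). Its dimmer probeset averaged 67.4 in Meishan and 124 in Yorkshire gilts, with -0.87 (limma adjusted p = 0.269). WNK4, a relative of WNK1, averaged 88.1 in Meishan and 75.9 in Yorkshire gilts, with 0.22. The potassium-chloride cotransporter SLC12A4 averaged 151 in Meishan and 168 in Yorkshire gilts, with -0.16.

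Of 15 sodium-proton exchangers and scaffolds 7 were measured, 5 toward Meishan and 2 toward Yorkshire, with a median of 0.10. SLC9A3R1, a scaffold that holds CFTR and exchangers at the apical membrane, averaged 3105 in Meishan and 2573 in Yorkshire gilts, with a log2 difference of 0.27 (limma adjusted p = 0.560). PDZK1, a related scaffold, had 1454, 138, 123 and 225 in Meishan gilts, against 119.5, 79.2, 78.7 and 614 in Yorkshire gilts, with 0.90 (limma adjusted p = 0.705). Its highest gilts were the pair that was highest for AQP3 and ATP1B1. SLC9A3, an apical exchanger, was dim, at 18.3 in Meishan and 38.9 in Yorkshire gilts, with -1.09.

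Of 27 bicarbonate transporters and carbonic anhydrases 7 were measured, 3 toward Meishan and 4 toward Yorkshire, with a median of -0.01. CA12, a membrane carbonic anhydrase that faces the outside of the cell, had 488, 511, 449 and 437 in Meishan gilts, against 757, 719.7, 644 and 644 in Yorkshire gilts. The breeds did not overlap, and the gilts of each were close together, with a log2 difference of -0.55 (limma adjusted p = 0.185). The sodium bicarbonate cotransporter SLC4A4 did not overlap either, at 53.4 in Meishan and 28.4 in Yorkshire gilts, with 0.91 (limma adjusted p = 0.206), but its dimmer probeset lay toward Yorkshire, with -0.83. The anion exchanger SLC26A6 averaged 30.0 in Meishan and 58.3 in Yorkshire gilts, with -0.96.

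Of 13 epithelial potassium channel genes 7 were measured, 5 toward Meishan and 2 toward Yorkshire, with a median of 0.41. KCNE2, an accessory subunit of potassium channels, averaged 38.1 in Meishan and 10.05 in Yorkshire gilts, with a log2 difference of 1.92 (limma adjusted p = 0.227), and its relative KCNE3 154 in Meishan and 116 in Yorkshire gilts, with 0.41. KCNJ1, an inward rectifier known from the kidney, averaged 13.0 in Meishan and 29.2 in Yorkshire gilts, with -1.17. All but KCNE3 of these lay below a mean of 64 in both breeds.

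The named genes most like each of the 7 in the deviations of the 8 gilts were found among 7762 to 7764 probesets that carried 1 symbol and averaged 64 or more in Meishan and in Yorkshire gilts. They were WNK4 and FLVCR2 for AQP1, with Pearson correlations of 0.96 and 0.96, HSPA14 and TWISTNB for AQP3, with 0.98 and 0.98, and NUDCD2 and BCCIP for AQP5, with 0.96 and 0.95. For the pump they were ANKRD28 and TMED5 with ATP1B1, at 0.99 and 0.97, and UPRT and LARP4 with ATP1B3, at 0.99 and 0.99. For the channels they were OGT and C1H14orf37 with CFTR, at 0.99 and 0.97, and DCP1A and TIGD4 with SCNN1A, at 0.997 and 0.984. Correlations over 8 gilts, taken as the highest of so many, are a description of these arrays only.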

How the data were processed

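Endometrial RNA of 4 Meishan and 4 Yorkshire gilts was measured on Affymetrix Porcine Genome arrays, 1 per gilt. The deposited intensities are linear probeset signals that the authors made from the array images with GCOS 1.2, and their mean after trimming 2% at each end is about 500.1 on every array. Of 24123 probesets, 124 controls were left out of the tests.

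The analysis (R 4.3.3, with limma 3.58.1) took log2 of the signals, which were centred on the median of each array, and compared by breed with lmFit and eBayes and Benjamini-Hochberg adjustment over all 23999 probesets. Calls were made at an adjusted p under 0.1. The study used a q-value under 0.1 from its own mixed model, which is another measure, so the numbers of calls are not comparable. Means are means of log2 signals, printed as signals. The procedure was tested on simulated data. Names came from the array's annotation, in which 10069 probesets had 1 symbol, and from 2502 probesets of a table of the study, used for names only.

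The genes and lists were chosen with earlier results of these data known. Named were all probesets of the genes described, up to 3 further genes of each list with the lowest p (or those called), and for each gene the 2 genes with the most similar deviations. Alternatives were the signals as scaled by the authors, quantile normalization, cyclic loess normalization, a filter at a signal of 64, a floor of 32, an intensity trend, array weights, an unmoderated test, a threshold of 0.05, a replicate block, the mean over probesets of a gene, and leaving out each gilt. Sequences of the probesets were not used here.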

Additional observations from a re-analysis of the deposited data

Results flagged for a closer look

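Of 64 groups of 4 gilts examined, 5 held a gilt that lay far from the others of its breed, by the gap to the nearest other gilt as a share of the whole range (critical value of Dixon for 4 samples at 95%). By chance about 1 in 20 groups would hold one. AQP1, brighter probeset, was 1900.1 in Yorkshire gilt 4 and 2409 to 2513 in the other Yorkshire gilts. ATP1B1, dimmer probeset, was 2321 in Yorkshire gilt 4 and 339.6 to 395 in the others. FXYD2 was 254 in Meishan gilt 2 and 51.8 to 55.9 in the other Meishan gilts. SLC4A4 was 35.3 in Yorkshire gilt 3 and 26.0 to 26.8 in the other Yorkshire gilts. KCNE2 was 19.1 in Meishan gilt 4 and 43.3 to 51.3 in the other Meishan gilts.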

How the results depend on the processing

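None of the 9 probesets was called under any alternative, and the lowest adjusted p in limma among them was 0.198, for the dimmer ATP1B1 probeset without both Meishan gilt 1 and Yorkshire gilt 4, an alternative chosen after seeing the data. The directions of AQP3, ATP1B1, ATP1B3, SCNN1A and the brighter AQP1 probeset held under every alternative run. The difference of AQP5, -0.33, was 0.0781 without both gilts and -0.85 to 0.46 when single gilts were left out. That of CFTR, 0.17, was -0.10 after quantile and -0.20 after cyclic loess normalization, 1.37 without both gilts, and -0.48 to 0.88 without single gilts. That of the dimmer AQP1 probeset, -0.03, was 0.0340 with no further scaling and -0.15 to 0.16 without single gilts. The median of the aquaporin list, -0.33, was 0.15 without Yorkshire gilt 4. Quantile and cyclic loess normalization of the differences between probesets of an array were also chosen after seeing the data. The cause of these turns was not tested.

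Calls over all probesets, 218 in number, were 760 of 17595 after the filter on low signals, 863 with a floor of 32, 626 with an intensity trend, 497 with array weights, 60 at a threshold of 0.05, 94 without both gilts, and 72 (without Meishan gilt 4) to 205 (without Meishan gilt 1) when single gilts were left out. Replicate numbers do not mark shared animals, and same-numbered gilts had correlations of deviations of -0.06 to 0.09. With the replicate block, limma called 0 probesets, with 3327 of 23999 at an unadjusted p under 0.05, among them AQP3 and not AQP1. Low signals limit AQP5, CFTR and SCNN1A.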

Other observations

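Further transport genes were named only by the study's own table of probesets that differ between the breeds, so that this contrast chose them and their values are a description without a test. AQP10, an aquaporin that also passes glycerol, had 211, 69.1, 181 and 202 in Meishan gilts, against 285, 177, 271 and 316 in Yorkshire gilts. ATP1A4, a catalytic sodium pump subunit known from sperm, had 46.9, 52.1, 79.1 and 66.9 in Meishan gilts, against 6.25, 7.88, 7.82 and 46.6 in Yorkshire gilts. The breeds overlapped in AQP10 and not in ATP1A4. SLC4A11, a membrane transporter, averaged 82.5 in Meishan and 15.6 in Yorkshire gilts.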
